A study of Mus musculus with 4 samples.

Results

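T and NK lymphocytes of injured mouse Achilles tendon were described in 133 cell barcodes of 1 single-cell RNA library, the Vegfc CRE library of day 7. They were 133 of the 7071 barcodes kept in that library, or 1.88% (95% interval 1.58 to 2.23), and of 19021 kept in the 4 libraries of the series. Barcodes were kept with at least 500 genes, at least 1000 unique molecular identifiers (UMIs, counts of single captured mRNA molecules) and under 15% mitochondrial UMIs. A member held at least 2 UMIs of Cd3e, Cd3d and Cd3g together, the signalling chains of the T cell receptor, or at least 1 UMI of Ncr1 and Klrb1c together, receptors of natural killer (NK) cells. It also held at least 1 UMI of Ptprc, the pan-leukocyte phosphatase CD45, and 0 UMIs of the B cell genes Cd79a and Ms4a1. Barcodes with 5 or more UMIs of the complement genes C1qa, C1qb and C1qc, with 20 or more of S100a8 and S100a9, or with 20 or more of Col1a1, Col1a2 and Dcn were left out. Members were thus chosen from measured values, so the levels of these genes, and differences between subsets cut from the same cells, are descriptions that no test supports.

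The Vegfc CRE mice were studied at day 7 after a tendon injury that the labels abbreviate as B/T. The other groups carried Prox1 eGFP and were untreated tendon at day 0 or injured tendon at days 7 and 21. Each group was 1 library made from 5 pooled tendons, so no spread between animals could be measured and no p-value is given. All intervals are 95% intervals for counting error only. The labels give neither the age of the mice nor what the CRE line drives. Tissue was digested with collagenase and dispase. The protocol describes a sort for Prox1-expressing cells, while another label calls the same cells unsorted, and a Prox1 UMI was seen in 1.15% of the kept Vegfc CRE barcodes and in 8.84%, 96.8% and 86.9% of those of Prox1 eGFP days 0, 7 and 21. A sort could set every share of cells given below. The Vegfc CRE library held 92568978 UMIs over 8711 barcodes. Its members held 629887 UMIs, with a median of 3938 per member (1185 to 23503) against 8556 over all kept barcodes, and their median mitochondrial share was 6.45% of UMIs. Members with genes of mast cells (3), macrophages (2) or endothelium (2) were present. The 8 genes with the highest ratio in each subset of at least 30 members were also read without them. Between pairs of libraries, 2 to 14 barcodes were shared, and 0 of them were members in both libraries of a pair.

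T cells recognise antigen through a receptor whose paired chains are alpha and beta in most cells and gamma and delta in a smaller, largely tissue-resident group. Alpha-beta T cells divide into Cd4 helper cells, Foxp3-expressing regulatory cells and Cd8 cytotoxic cells, whereas NK cells kill without such a receptor. Gamma-delta T cells that carry the scavenger receptor Cd163l1 are a known source of interleukin 17A in barrier tissues. NK cells and type 1 T cells make interferon gamma, and regulatory T cells can make the repair factor amphiregulin (Areg).

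The promoters of 3 genes seen in the largest subsets described below are shown: Il17a, the interleukin 17A gene, Il23r, the receptor that sustains its production, and Ncr1. They do not mark whole subsets, as Il17a was seen in 13 of the 41 Trdc members. Of the genes read, only these 3 held the half-site described below within their 250 bases, so they do not represent the genes read. The sequences are from RefSeq (GRCm38.p6), 5′ to 3′ on the gene's own strand, 250 bases before the start of the entry shown. For Ncr1 another entry, with its 250 bases at chr7:4337474-4337723, ends directly before the gene start given below. It also held 1 match of the half-site described next. Capitals mark AGGTCA or its reverse complement TGACCT, the half-site recognised by many nuclear receptors.
Il17a (chr1:20730655-20730904, plus strand): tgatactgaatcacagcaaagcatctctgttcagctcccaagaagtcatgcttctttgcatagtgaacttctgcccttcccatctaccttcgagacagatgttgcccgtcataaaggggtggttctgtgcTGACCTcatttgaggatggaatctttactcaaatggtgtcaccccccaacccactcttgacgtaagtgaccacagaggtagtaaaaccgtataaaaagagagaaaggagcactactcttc
Il23r (chr6:67491856-67492105, minus strand): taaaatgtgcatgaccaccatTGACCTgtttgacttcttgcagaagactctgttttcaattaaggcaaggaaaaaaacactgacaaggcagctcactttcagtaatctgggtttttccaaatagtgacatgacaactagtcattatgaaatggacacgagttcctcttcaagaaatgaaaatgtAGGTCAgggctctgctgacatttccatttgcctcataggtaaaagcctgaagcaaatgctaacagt
Ncr1 (chr7:4337465-4337714, plus strand): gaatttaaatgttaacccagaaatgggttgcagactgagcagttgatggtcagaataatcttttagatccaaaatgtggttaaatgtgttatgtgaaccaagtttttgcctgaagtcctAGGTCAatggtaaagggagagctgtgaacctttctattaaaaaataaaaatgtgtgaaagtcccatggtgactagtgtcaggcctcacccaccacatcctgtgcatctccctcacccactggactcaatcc
Il17a and Ncr1 held 1 match each and Il23r held 2. In windows of 300 bases (these 250 and the next 50), 16.3% of 32851 promoters held the half-site on either strand. Of the other windows read, that of Ifng held 1 match and those of Cd163l1, Xcl1 and Gzma held 0. The T-box half-site TCACACCT or AGGTGTGA was found in 0 of the windows of Il17a, Cd163l1, Il23r, Ncr1, Xcl1, Gzma and Ifng, against 1.28% of all promoters. These letter matches are descriptions and say nothing of binding.

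The label was checked against 5 markers, of which Nkg7 and Il7r were not used by the rule. Nkg7, a protein of cytotoxic granules, was seen in 70 of the 133 members (52.6%, 502 UMIs) and in 0.346% of the other 6938 kept barcodes of the library, whose median depth was 8714 UMIs. Il7r, the interleukin 7 receptor of resting T cells and innate lymphocytes, was seen in 53 members (39.8%, 166 UMIs) and in 5.56% of the other barcodes, with 12.6% in a macrophage gate of 1480 barcodes (median 8795 UMIs). Both shares were higher in the members although these were shallower. Of the markers the rule used or shares cells with, Cd3e was seen in 70 members (172 UMIs) and 0.85% of the others, Cd3g in 91 members (543 UMIs) and 0.879%, and Ncr1 in 41 members (139 UMIs) and 0.13%. Vegfc, the gene of the CRE line, gave 4 UMIs in 3 members, and Prox1 gave 0 UMIs.

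The edges of the gate were as follows. Among the 98 members with at least 2 Cd3 UMIs, 7 held exactly 2, and 11 barcodes that met the other limits held 1. Leaving the Ptprc limit aside would have added 20 barcodes at 0 UMIs of that gene, of which 10 held Trdc, and 25 members had a single Ptprc UMI. The S100a8 and S100a9 limit alone left out 22 barcodes with 26 to 723 such UMIs, where the highest member had 5. The C1q limit alone left out 4 barcodes with 20 to 285 UMIs, against a highest member of 3. The collagen and Dcn limit alone left out 6 with 22 to 686, against a highest member of 18, and the B cell genes alone left out 2. The S100 and C1q limits therefore fell in a gap between members and the rest, whereas the Ptprc and collagen limits ran through a continuous range.

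Members were divided by the genes named for them. Members with fewer than 2 Cd3 UMIs, which entered through Ncr1 or Klrb1c, formed the Ncr1/Klrb1c subset, and the others were taken in order by a UMI of Foxp3, the regulatory T cell factor, of Trdc, the constant region of the T cell receptor delta chain, and of Cd8a or Cd4. The Trdc subset held 41 members (30.8%, 23.1 to 39.4). The Ncr1/Klrb1c subset held 35 (26.3%, 19.1 to 34.7), and 33 members with at least 2 Cd3 UMIs stayed unassigned (24.8%, 17.7 to 33.0). Cd4 alone marked 10 members (7.52%, 3.66 to 13.4), while Foxp3 and Cd8a marked 7 each (5.26%, 2.14 to 10.5). The Trdc, Ncr1/Klrb1c and unassigned shares were within each other's counting error, and each was above those of the Cd4, Foxp3 and Cd8a subsets. The order of the cuts also set these shares. Of the members with at least 2 Cd3 UMIs, 13 held Ncr1 or Klrb1c, with 6 of them in the Trdc subset and 6 unassigned. Trdc was seen in 47 members in all, 6 of them in the Ncr1/Klrb1c subset.

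The same division at day 0, applied to 367 members among 690 kept barcodes (53.2%, 49.4 to 57.0), gave another order. There the Foxp3 subset was the largest with 134 members (36.5%, 31.6 to 41.7), and the Trdc and Ncr1/Klrb1c subsets held 13 each (3.54%, 1.90 to 5.98). Day 0 members were deeper, with a median of 7371 UMIs. After thinning every member to 1500 UMIs, which left 108 and 316 members in the gate, the Trdc share was 28.7% in Vegfc CRE day 7 against 3.16% at day 0. The Ncr1/Klrb1c share was then 29.6% against 3.80%, and the Foxp3 share 2.78% against 13.0%. The Trdc and Ncr1/Klrb1c shares were thus higher in Vegfc CRE day 7 at equal depth. At 1000 UMIs the Trdc shares were 27.1% and 2.86% and the Ncr1/Klrb1c shares 30.2% and 3.93%, whereas the Foxp3 shares, 2.08% (0.253 to 7.32) and 5.71% (3.30 to 9.11), overlapped in counting error, and so did the shares of the Foxp3, Ncr1/Klrb1c and Trdc subsets within day 0. With thinning to 1500 UMIs, at day 0 the unassigned T cells took 64.2% against 25.1% before. Thinning left out 1 and 5 members with fewer UMIs, and 24 and 46 no longer met the gate. Line, injury, day and library all differ between these groups and cannot be told apart.

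**Figure D1:**
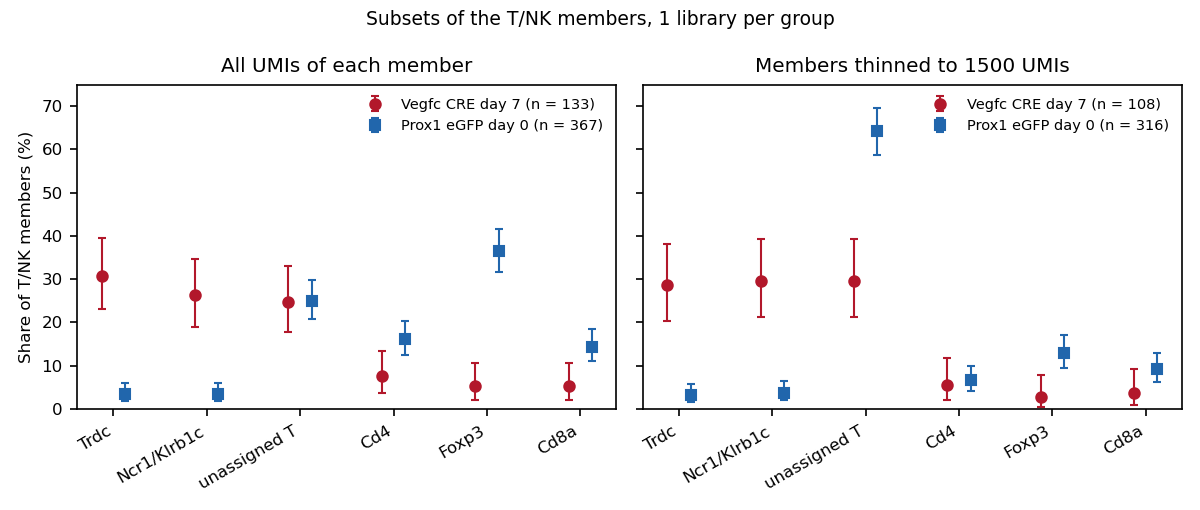
Share of T/NK members (%) in each subset of Vegfc CRE day 7 (circles) and Prox1 eGFP day 0 (squares), with all UMIs (left) and thinned to 1500 UMIs (right), with bars for exact 95% binomial intervals. The Trdc and Ncr1/Klrb1c shares are higher and the Foxp3 share is lower in Vegfc CRE day 7 in both panels.

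**Figure D2:**
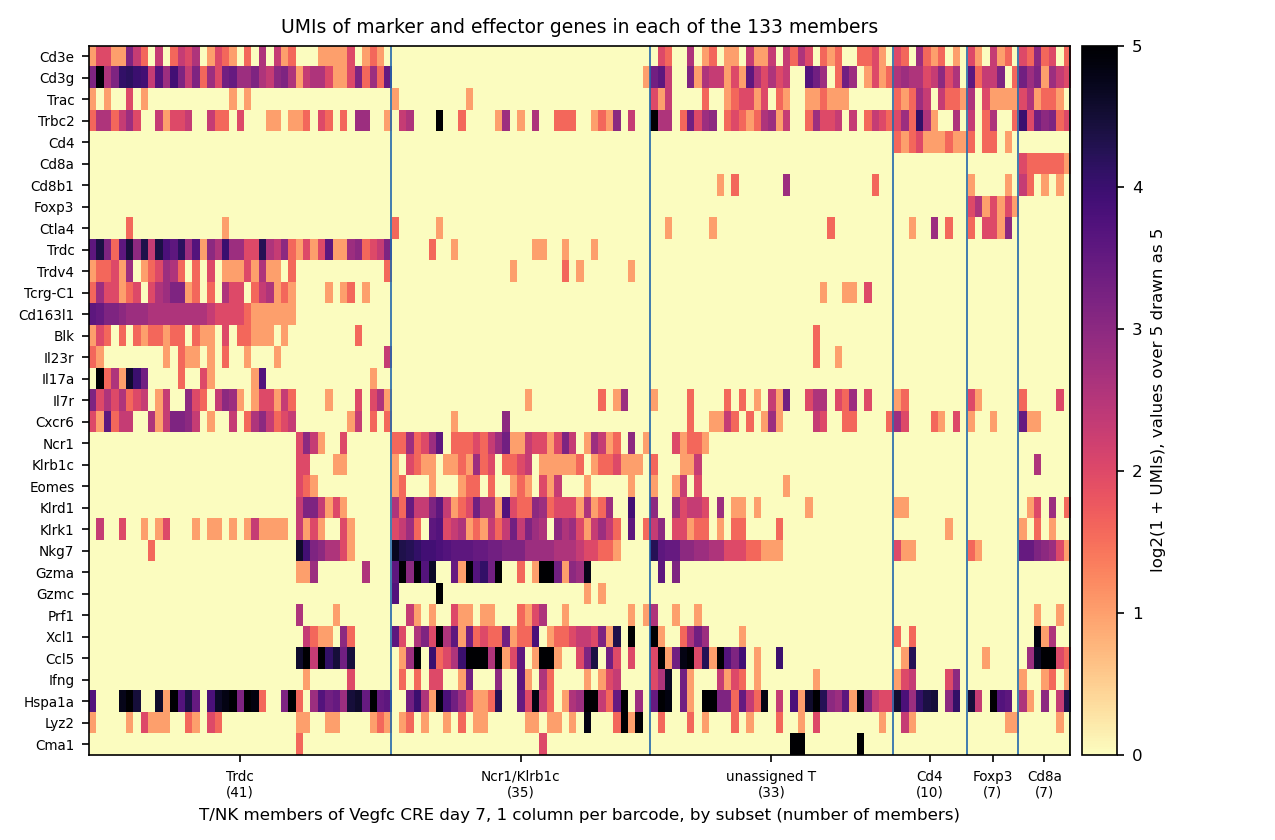
UMIs of 33 marker and effector genes (rows) in each of the 133 members (columns, grouped by subset), as log2(1 + UMIs) with values over 5 drawn as 5. Cd163l1, Blk and Il17a fill part of the Trdc columns, Ncr1, Klrb1c, Klrd1 and Gzma fill much of the Ncr1/Klrb1c columns, and Hspa1a is seen across all subsets.

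The Trdc subset carried the type 17 gamma-delta genes. Trdc (chr14:54142851-54148868, plus strand, mm10) gave 315 UMIs in its 41 members, at 1624 CPM (UMIs of the gene scaled to 1000000 UMIs of the summed subset). Cd163l1 (chr7:140218267-140231145, plus strand, a protein-coding gene), the scavenger receptor of interleukin 17A-making gamma-delta cells, gave 126 UMIs in 28 of the 41 members at 650 CPM (541 to 773). It gave 0 UMIs in the other 92 members. With 3 counts set in place of 0 it was 94.4-fold higher, with an exact lower limit of 75.6-fold. Il17a (chr1:20730905-20734496, plus strand, protein coding) gave 124 UMIs in 13 of the 41 at 639 CPM (532 to 762.1), again with 0 UMIs in the other 92. In the same way Il17a was 92.9-fold higher, with an exact lower limit of 74.4-fold. Its UMIs were spread unevenly: the 13 cells held 1 to 49 each with a median of 3, and without the highest cell the level was 402 CPM (316 to 504). Of the 13 with Il17a, 12 also held Cd163l1.

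Other genes of that program stood higher in the same subset. Blk, a Src-family kinase of these cells, was 41.6-fold higher (10.7 to 356; 22 of 41 members). Il23r was 12.7-fold higher (3.68 to 67.8) in 11 members. Trdv4, a variable segment of the delta chain, was 25.6-fold higher (10.4 to 81.9) and was seen in 24 members, 23 of which also held Cd163l1. Pdcd1, the checkpoint receptor PD-1, was 44.9-fold higher with only 20 UMIs (7.19 to 1863). Ltb4r1, a leukotriene receptor, was 18.0-fold higher (7.09 to 58.4), Actn2, an actinin, was 19.8-fold higher, and Tcrg-C1, a gamma-chain constant gene, was 32.2-fold higher. Tcrg-C1, Tcrg-C2 and Tcrg-C4 are similar in sequence, so reads can be split among them. The gene BC018473 was 20.2-fold higher. Leaving out the 2 Trdc members with 25 to 27 endothelial UMIs moved none of the 8 genes with the highest ratios outside its interval.

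Counted over the list of type 17 and gamma-delta genes, 12 of the 13 with at least 20 UMIs were at least 2-fold higher in the Trdc subset and 0 were lower, where 7.02% of 3848 genes were higher and 9.51% lower. Maf, a regulator of that program, was the exception at 1.96-fold higher (1.47 to 2.60). Those genes include Trdv4, Cd163l1 and other genes known from gamma-delta cells, so the count repeats what the Trdc cut would bring. In the cytotoxicity list, 10 of 12 were lower, among them Gzma, 13.7-fold lower (7.92 to 25.9), and Nkg7, 2.84-fold lower (2.20 to 3.72). The Ncr1/Klrb1c subset is among the other members and held 381 Gzma UMIs, against 13 in the Trdc subset and 19 in the unassigned T subset. The Gzma ratio is thus largely a contrast with that subset. Ratios against the other Cd3 members alone were not computed. Of the T cell receptor genes, 8 were higher and 6 lower of 24. Cd3g was 2.73-fold higher and Cd247, the zeta chain, 2.75-fold higher. The other members include the 35 of the Ncr1/Klrb1c subset, which were cut to hold fewer than 2 Cd3 UMIs. Higher Cd3 genes in the Trdc subset are thus in part set by that cut. The kinase Lck, by contrast, was 4.50-fold lower (2.27 to 10.2) and the costimulatory receptor Cd28 11.8-fold lower (3.11 to 99.9). Cd6 was 5.79-fold lower and Cd5 3.23-fold lower. Trac, the alpha-chain constant gene, was 4.73-fold lower (2.29 to 11.3) and was seen in 6 of the 41.

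The Trdc subset was not uniform. Any of Cd163l1, Blk, Il23r or Il17a was seen in 31 of the 41 (75.6%, 59.7 to 87.6). Another 8 held none of these and held Nkg7 (19.5%, 8.82 to 34.9). Ncr1 or Klrb1c was seen in 6, and 0 of the 41 held a UMI of Cd163l1 together with one of either, an exact upper limit of 8.60% on cells with such UMIs and not on cells expressing both. Cd4, Cd8a and Cd8b1 were seen in 0 of the 41. Interleukin 17F was close to absent from the counts with 2 Il17f UMIs in 1 cell, and Il22, a barrier cytokine, gave 0 UMIs. Of the 13 Trdc members at day 0, 6 held Cd163l1 (42 UMIs, 460 CPM) and 0 held Il17a. Il17a at day 0 came to 48 UMIs in 2 members outside the Trdc subset.

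The Ncr1/Klrb1c subset carried NK cytotoxicity genes. Ncr1 (chr7:4337724-4345164, plus strand), the receptor NKp46, was seen in 31 of its 35 members (112 UMIs) and Klrb1c, the receptor NK1.1, in 29 (53 UMIs), as the rule required of at least one. Gzma (chr13:113093825-113100981, minus strand, protein coding), the granule protease granzyme A, gave 381 UMIs in 22 members at 1814 CPM and was 23.8-fold higher than in the other members (16.6 to 35.3). Prf1, the pore-forming perforin, was 3.60-fold higher (1.85 to 7.28) in 15 members, and Nkg7 was 2.52-fold higher (2.11 to 3.02) in 31. The NK receptors Klrd1, Klrk1 and Klrc1 were 3.65-, 4.08- and 5.90-fold higher. The adaptors Tyrobp and Fcer1g, which pass on signals of such receptors, were 6.98- and 4.80-fold higher. These adaptor folds include the 2 members with macrophage genes described below and were not computed without them. Klrb1b was 27.3-fold higher (8.72 to 138) in 16 members, and Car2, a carbonic anhydrase, was 40.0-fold higher (13.0 to 199) in 19. Trdc was seen in 6 of the 35, Trac in 2, and Cd4 and Cd8a in 0.

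Over the lists, 16 of 19 NK genes and 10 of 12 cytotoxicity genes were at least 2-fold higher in the Ncr1/Klrb1c subset, where 6.76% of 3848 genes were higher and 13.8% lower. The members of this subset entered through Ncr1 or Klrb1c, and the NK list holds Ncr1. These counts therefore repeat in part what that cut would bring. The T-box factor Eomes was 3.12-fold higher (1.60 to 6.26), while the related Tbx21 was at 57.1 CPM against 31.0 in the other members, 1.85-fold higher (0.77 to 4.39). All 13 type 17 genes with at least 20 UMIs were lower. Proliferation genes were lower in 7 of 13: Mki67 gave 4 UMIs in 2 members and was 9.63-fold lower (3.61 to 36.2). Top2a, a topoisomerase of dividing cells, gave 0 UMIs and was 11.01-fold lower with 3 counts set in place of 0. Single cells set some values. Granzyme C gave 366 Gzmc UMIs in 4 cells, of which 352 were in 1 cell, and the chemokine gene Ccl1 gave 40 UMIs in 1 cell. Granzyme genes of the Gzmb and Gzmc cluster and the Klra receptors have close copies, so their counts are uncertain.

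Myeloid genes also ranked high in the Ncr1/Klrb1c subset. Lyz2, a lysozyme of macrophages and neutrophils, was 36.4-fold higher (27.1 to 49.9), Fn1, fibronectin, 15.8-fold, Il1b 15.6-fold, Irf8 9.63-fold and Prdx1, a peroxiredoxin, 9.42-fold. In 2 members of the subset, 20 to 38 UMIs came from Csf1r, Cd68, Mrc1 and Adgre1, and their median depth was 21326 UMIs against 4855 in the subset. Without them Lyz2 was 3.15-fold higher (2.10 to 4.76), Fn1 5.55-fold, Il1b 3.55-fold and Prdx1 2.79-fold. Irf8, a factor of myeloid and NK cells, was 9.88-fold higher without them, Gzma 24.6-fold, Klrb1b 30.3-fold and Car2 61.0-fold. Of the 61 Lyz2 UMIs left, 44 were in 1 more member that held 1 Klrb1c UMI and 0 of Ncr1, Gzma, Nkg7 and Klrd1. Leaving out also the member with the most UMIs of each gene brought Lyz2 to 105.6 CPM against 115.8 in the other members, a ratio of 0.912 (0.488 to 1.63), Fn1 to a ratio of 0.897 and Prdx1 to 0.876. The myeloid excess was thus that of a few members, while Gzma left out in the same way was 22.1-fold (15.3 to 32.8) and Irf8 8.48-fold higher.

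The 33 members of the unassigned T subset, named for their Cd3 UMIs alone, held no UMI of Cd4, Cd8a, Trdc or Foxp3. Trac was seen in 18 of them and Trbc2, a beta-chain constant gene, in 27, at 2.26-fold (1.43 to 3.52) and 2.34-fold (1.90 to 2.89) the level of the other members. Trbc1 and Trbc2 are near-identical, so reads can be split between them. Cd8b1, the beta chain of Cd8, was seen in 4 and Ncr1 or Klrb1c in 6, so T cell identity was not shown for each of the 33. Tcf7 and Lef1, factors of naive and memory T cells, were 2.06-fold (1.25 to 3.32) and 3.74-fold (1.42 to 9.71) higher. Of 8 naive and central memory genes with at least 20 UMIs, 2 were at least 2-fold higher, where 3.85% of 3848 genes were higher and 13% lower. Ifng (chr10:118441046-118445892, plus strand), interferon gamma, was 2.71-fold higher (1.89 to 3.87) with 54 UMIs in 11 cells, of which 24 were in 1 cell. Ly6c2, a surface antigen of memory T cells and monocytes, was 2.49-fold higher (1.42 to 4.29) in 8.

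Of the unassigned T subset, 3 members held 602 to 948 UMIs each of the mast cell genes Cpa3, Mcpt4, Cma1 and Tpsb2, with Cd3 sums of 2 to 5. Their Cd3 UMIs were all of Cd3e, with 0 UMIs of Trac, Trbc1 and Trbc2. The name T cell is thus not borne out for these 3 members. Serpinb1a, a protease inhibitor, was 4.47-fold higher in the subset with these cells and 1.81-fold lower without them (0.228 to 1.16 as a ratio). Apoe, an apolipoprotein, went from 3.47-fold to 1.19-fold higher, and Plgrkt, a plasminogen receptor, and Osbpl8, a lipid transfer protein, ended at 1.54-fold and 1.41-fold. Ifng at 2.62-fold, Ly6c2 at 2.38-fold, Trbc2 at 2.28-fold and Trac at 2.20-fold stayed over 2-fold. Il1rl1, the interleukin 33 receptor of type 2 cells and mast cells, gave 23 UMIs in 3 cells, and Il4 and Il13 gave 5 and 3 UMIs in 2 cells each.

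The Cd4, Foxp3 and Cd8a subsets were small and are given by counts. Of the 10 Cd4 members, Trac was seen in 9, Icos, an activation receptor, in 7, Ifng in 5 and Cxcr6 in 5. The 7 Foxp3 members held 17 Foxp3 UMIs, and Cd4 was seen in 4 of them, the checkpoint receptor Ctla4 in 5, Il2ra, the high-affinity interleukin 2 receptor chain, in 5 and Ikzf2, the factor Helios, in 6. Areg gave 0 UMIs in the Foxp3 members. At day 0, Areg was seen in 68 of 367 members. The 7 Cd8a members held Cd8b1 in 4, Nkg7 in 7 and Ccl5, a chemokine of cytotoxic cells, in 6.

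Effector genes were divided among the subsets. Ifng was at 20.6 CPM (5.62 to 52.8) in the Trdc subset, at 262 (197 to 341) in the Ncr1/Klrb1c subset, at 439 (330 to 572) in unassigned T cells, at 484 (287 to 766) in Cd4 and at 168 (54.6 to 392) in Cd8a members, with 0 UMIs in the Foxp3 members. The Trdc level lay below every other subset with UMIs, and the Ncr1/Klrb1c, Cd4 and Cd8a intervals overlapped. Without the member with the most Ifng UMIs in each subset, the levels were 5.25 CPM in Trdc, 215 in Ncr1/Klrb1c, 256 in unassigned T, 318 in Cd4 and 116 in Cd8a members. The Foxp3 members, with 35852 UMIs in all, could only limit Ifng to 83.7 CPM. Il17a, by contrast, was seen in no subset but Trdc, although the subset with the fewest UMIs, Cd8a, only limits it to 101 CPM. In the other kept barcodes of the library Il17a gave 37 UMIs in 13 of 6938.

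Xcl1 (chr1:164931644-164935527, minus strand), which recruits cross-presenting dendritic cells, was at 1233 CPM in the Ncr1/Klrb1c subset (30 of 35 members) and 87.6 in Trdc members. In Cd8a members Xcl1 came to 1143 CPM from 34 UMIs in 3 cells, 28 of them in 1, and without that cell to 226 CPM. In unassigned T cells Xcl1 came to 780 CPM from 96 UMIs in 7 cells, 72 of them in 1, and without that cell to 205 CPM. The Ncr1/Klrb1c level without its highest cell was 872 CPM, so it stayed above both. Ccl5 was at 5648 CPM in Cd8a, 3085 in Ncr1/Klrb1c, 2412 in unassigned T, 1000 in Trdc, 511 in Cd4 and 27.9 in Foxp3 members. Of the 19 Ccl5 UMIs in Cd4 members, 18 were in 1 cell, and the Cd8a level without its highest cell was 3578 CPM. Ccl5 was also seen in 2.95% of the other kept barcodes. Tnf, tumour necrosis factor, was 3.69-fold higher in the Trdc subset than in the other members (1.82 to 7.76; 119 CPM in 13 cells). Ltb, lymphotoxin beta, was at 324 CPM in Ncr1/Klrb1c and at 670, 764 and 861 CPM in Trdc, unassigned and Cd4 members. Tgfb1, a fibrosis cytokine, was at 143 CPM in the members, with 90 UMIs in 57 of them, and 84.5 CPM in the other kept barcodes.

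**Figure D3:**
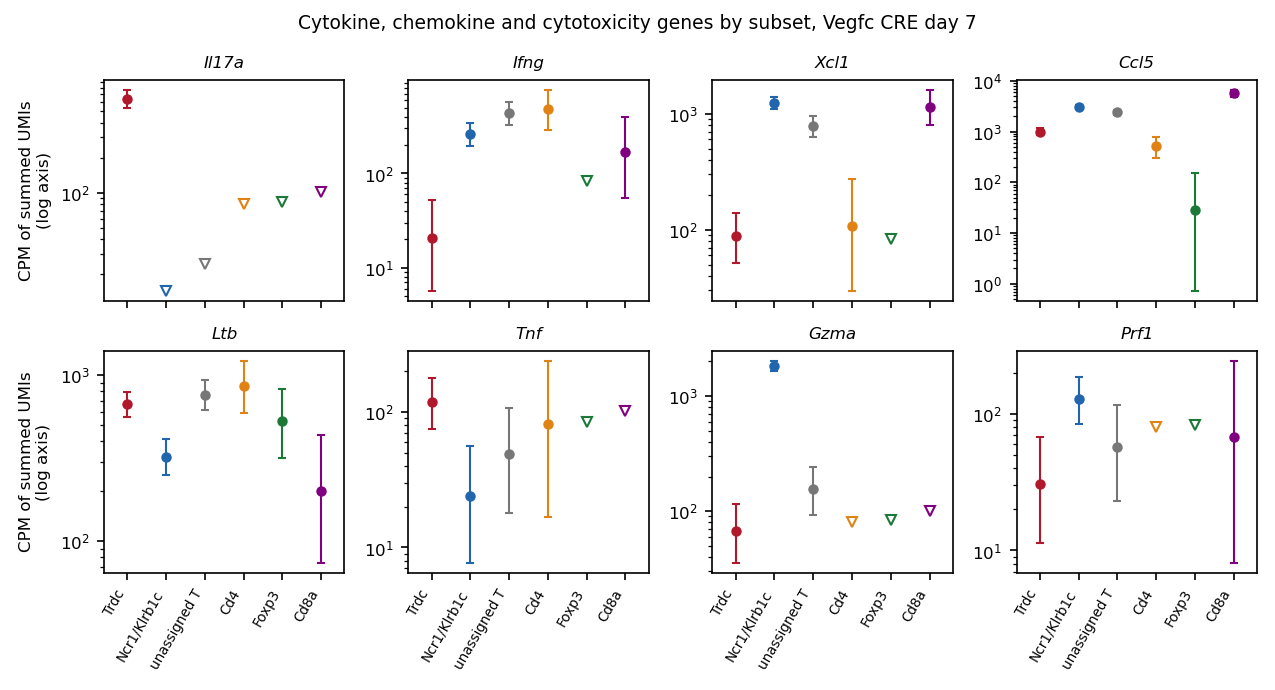
Levels of 8 cytokine, chemokine and cytotoxicity genes by subset of Vegfc CRE day 7, in CPM of summed UMIs on log axes, with bars for exact 95% Poisson intervals and open triangles at the limit of 3 counts where 0 UMIs were seen. Il17a is drawn as a level only in the Trdc subset, and Gzma is highest in the Ncr1/Klrb1c subset.

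Receptors for homing and residence also differed. Ccr2, the receptor for monocyte chemoattractants, was seen in 93 of the 133 members (486 CPM), with 567 CPM in Trdc, 490 in Ncr1/Klrb1c and 134 in Cd8a members (4 UMIs in 1 cell), and in 19.9% of the other kept barcodes. Cxcr6, a receptor of tissue-resident T cells, was at 531 CPM (433 to 644) in Trdc and 38.1 (16.4 to 75.1) in Ncr1/Klrb1c members, where 7 of the 8 UMIs were in 1 cell. Il7r was at 490 CPM (396 to 599) in Trdc, 398 in unassigned T and 47.6 (22.8 to 87.6) in Ncr1/Klrb1c members, where 6 of the 10 UMIs were in 1 cell. Cd69, an early activation and residence marker, was at 345 CPM in Trdc and 152 in Ncr1/Klrb1c members. The Trdc members were thus above the Ncr1/Klrb1c members in Cxcr6 and Il7r. The smaller Cd4, Cd8a and Foxp3 subsets held 15, 12 and 2 Cxcr6 UMIs and 3, 5 and 4 Il7r UMIs, and were not ranked. Mki67, a protein of dividing cells, was seen in 28 members (21.1%), namely in 12 of 41 Trdc, 6 of 33 unassigned, 3 of 7 Foxp3, 3 of 10 Cd4, 2 of 7 Cd8a and 2 of 35 Ncr1/Klrb1c members.

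Genes of other cell types were present in the members. Summed over the members, the macrophage list came to 2170 CPM with all 10 genes seen, against 11733 CPM in the other kept barcodes and 253 CPM in the day 0 members. The fibroblast and tendon list came to 797 CPM with 9 of 10 genes seen and Pdgfra at 0, against 39459 CPM in the other barcodes and 3.11 CPM in the day 0 members. The mast cell list came to 3991 CPM, nearly all from the 3 members named above (up to 18.7% of a member's UMIs), against 86.0 CPM in the other barcodes and 2.34 CPM in the day 0 members. The neutrophil list came to 168 CPM with Retnlg and Cxcr2 at 0, against 24.1 CPM in the day 0 members, and the endothelial list to 125 CPM with Prox1 at 0, against 73.4 CPM. The dendritic list was the reverse, at 302 CPM with Flt3, Xcr1, Cd209a and Clec9a at 0, against 1935 CPM in the day 0 members. Macrophage, fibroblast, mast cell, neutrophil and dendritic genes therefore moved with the comparison to day 0, and their part in the other differences was not tested.

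Against the 367 day 0 members, 12.8% of 9372 genes with at least 20 UMIs over both sums were at least 2-fold higher in the 133 members (1197 genes) and 13.7% were at least 2-fold lower (1282). The median log2 ratio over all 9372 genes was -0.07. Outside the lists of other cell types, the genes with the highest ratios were of 3 kinds. Lymphocyte genes came first in number: Cd163l1 was at 200.04 CPM against 11.4, 17.5-fold higher (12.3 to 25.3). Ifng was at 216 CPM against 15.8, 13.6-fold higher (10.0 to 18.8), and was seen in 37 of 133 members against 20 of 367. Ncr1 was 11.98-fold higher (8.94 to 16.2), Trdc 11.7-fold (9.65 to 14.1), Klrk1 10.2-fold and Klre1, another NK receptor, 10.1-fold.

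The second kind was heat shock genes, given below, and the third was genes known mostly from other cells. Fn1 was at 268 CPM against 1.30, 207-fold higher (86.9 to 645), in 28 of 133 members, and the log2 ratio went from 7.69 to 6.79 without the members that carried mast cell, macrophage or endothelial genes. The chemokine gene Ccl8 was 44.6-fold higher (20.1 to 116). Gm10260 (chr13:97760072-97760632, minus strand, annotated as protein coding), whose role is not given here, was at 211 CPM against 0.519. As such a gene can share reads with near-identical copies, its count is uncertain.

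The genes with the lowest ratios included a regulatory T cell receptor and histone genes. Izumo1r (chr9:14885814-14903949, minus strand), the folate receptor FR4 of regulatory T cells, gave 1 UMI in 1 of 133 members against 1190 UMIs in 198 of 367, 194-fold lower (34.8 to 7688). Tnfrsf4, the costimulatory receptor OX40, was 18.9-fold lower (11.9 to 32.0), and Cd200, an inhibitory surface protein, was 10.5-fold lower (4.79 to 28.8). Tbc1d4, a regulator of vesicle traffic, was 81.6-fold lower, with 1 UMI against 499. Ephx1, Cbx7, Phpt1 and B930036N10Rik were 19.9-, 15.4-, 10.7- and 21.7-fold lower. The histone genes Hist1h3e, Hist1h4d, Hist2h2ac and Hist1h2ae were 22.6-, 13.8-, 13.2- and 12.8-fold lower, and their copies are similar in sequence. Every one of these 12 genes had at least 94 UMIs at day 0. The rule that named them asked for a UMI in 20% of the members of the higher library. Their day 0 counts were thus high by choice and lend no support to the direction.

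Heat shock genes were higher in the members of Vegfc CRE day 7. Hspa1a (chr17:34969190-34972156, minus strand), the inducible chaperone HSP70, was at 2429 CPM in 107 of 133 members against 142 CPM in 100 of 367, 17.1-fold higher (15.5 to 18.9). Its near-identical neighbour Hspa1b was 9.66-fold higher, the cochaperone Hsph1 10.4-fold (8.49 to 12.7), Hsp90aa1 4.76-fold (4.40 to 5.15) and Dnajb1 2.57-fold. Hspa1a was present in each subset, from 1210 CPM in Cd8a (709 without its highest cell) and 1462 in Ncr1/Klrb1c to 3057 in Trdc and 3256 in Cd4 members. Hspa1a was also at 936 CPM in the 6938 other kept barcodes of the library against 210 CPM in the 323 of day 0. These remainders were not matched by cell type, so a difference in cells other than lymphocytes was not tested. In the same list, the immediate early genes Fos, Jun and Junb had ratios of 0.881, 1.17 and 1.20. The median mitochondrial share of the members was 6.45% against 1.76% at day 0. The part of tissue digestion and cell handling in these values was not tested.

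To set subsets of one kind side by side, the subsets of both libraries were also weighted by the shares of Vegfc CRE day 7. Weighting fixes the genes that cut the subsets (Trdc, Ncr1, Klrb1c, Foxp3, Cd4 and Cd8a), which are therefore left aside. Among other genes, the log2 ratio of Cd163l1 went from 4.13 to 0.49 and of Klrk1 from 3.34 to 0.17. Xcl1 went from 3.18 to 0.02 and Nkg7 from 2.01 to -0.01. The cytotoxic genes Gzma and Prf1 turned to the other side, from 2.41 to -1.33 and from 1.78 to -0.87, as did Ccl5, from 1.89 to -0.58. The sign of these 2 cytotoxic genes thus depended on whether subsets were pooled or weighted. Areg went from -2.47 to -0.12 and Ctla4 from -2.35 to -0.62.

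Other genes were over 2-fold apart with weighting, some by less than without it, and Il7r only with it. Hspa1a went from 4.10 to 4.66, Hsph1 from 3.37 to 3.96, Tbc1d4 from -6.35 to -7.32 and Il7r from -0.60 to -1.62 on the log2 scale. Ifng went from 3.77 to 1.07, Ccr2 from 2.59 to 1.31, Izumo1r from -7.60 to -5.68 and Tnfrsf4 from -4.24 to -2.39. The weights rest on 13 day 0 members each for the Trdc and Ncr1/Klrb1c subsets. In those 13 Ncr1/Klrb1c members of day 0, Gzma was at 5111 CPM in 8 cells, Ccl5 at 4861, Nkg7 at 1979, Xcl1 at 1871 and Ifng at 392 CPM. For Ifng this was above the 262 CPM of that subset in Vegfc CRE day 7, so its higher level was not shared by every subset.

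By list, set against the 12.8% of all genes that were higher and the 13.7% that were lower, the NK genes were higher in 20 and lower in 1 of 22, with a median log2 ratio of 3.02 that became 0.02 with weighting. Type 17 and gamma-delta genes were higher in 15 and lower in 1 of 18 (median 1.93, then 0.27), and cytotoxicity genes were higher in 9 and lower in 0 of 14 (1.89, then 0.06). Regulatory T cell genes were higher in 1 and lower in 14 of 19 (-1.39, then -0.06). Proliferation genes were lower in 11 of 18, and their median turned from -1.18 to 0.19. Immediate early and heat shock genes were higher in 8 and lower in 0 of 19 (0.75, then 0.22). The NK and regulatory lists hold genes that chose members or cut subsets, such as Ncr1 and Foxp3, so their counts are descriptions of the gate as well.

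Naive and central memory genes and T cell receptor genes had medians that stayed below 0 with weighting. The naive and central memory genes were lower in 6 and higher in 0 of 12, with a median of -0.91 that became -1.42. Ccr7, the lymph node homing receptor, was 9.97-fold lower (4.23 to 30.9), with 5 UMIs against 305. Lef1 was 4.83-fold lower (3.13 to 7.85), Klf2, a factor of circulating T cells, 3.01-fold lower and S1pr1, the receptor for exit from tissue, 2.02-fold lower. T cell receptor genes were lower in 9 and higher in 4 of 24 (-0.54, then -0.40): Trac was 5.17-fold lower (4.202 to 6.42) and Cd5 5.26-fold lower, with weighted log2 ratios of -0.93 and -1.04.

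**Figure D4:**
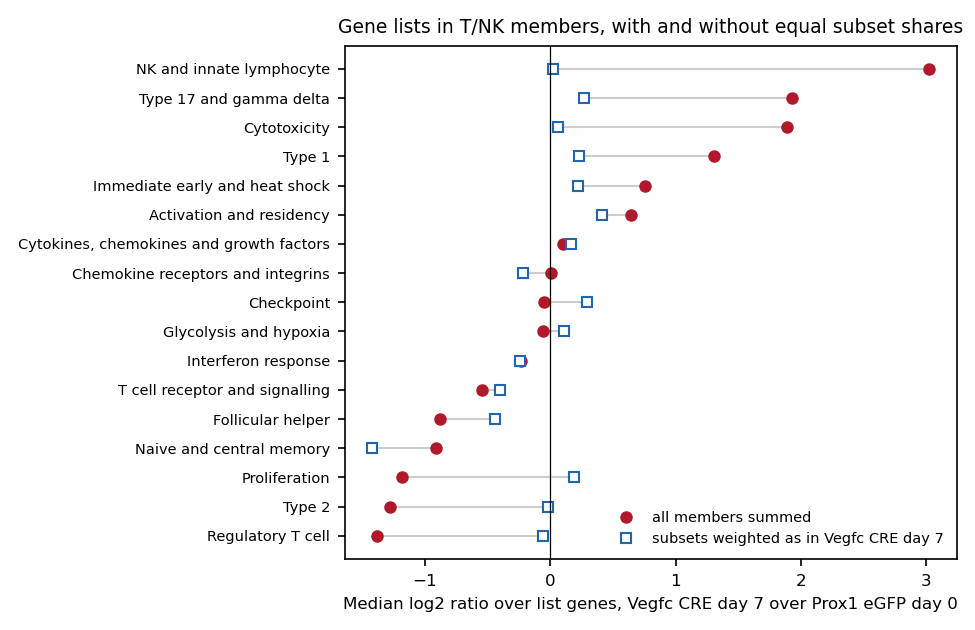
Median log2 ratio of each gene list, Vegfc CRE day 7 members against Prox1 eGFP day 0 members, for all members summed (points) and with subsets weighted as in Vegfc CRE day 7 (squares). The NK list moves from 3.02 to 0.02 and the naive and central memory list from -0.91 to -1.42.

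A comparison within 1 subset was possible for unassigned T cells, 33 members against 92 at day 0. These sets were not alike: Ncr1 or Klrb1c was seen in 6 of the 33 (18.2%) and in 4 of the 92 (4.35%). The 33 also include 3 members with mast cell genes. The part of these cells in the values below, such as Xcl1, Nkg7 and Ccl5 and the NK and cytotoxicity counts, was not tested. Of 4499 genes, 7.89% were at least 2-fold higher and 19% lower, with a median log2 ratio of -0.25. Ifng was at 439 CPM against 20.7, 21.1-fold higher (11.6 to 41.2), with 54 UMIs in 11 of 33 cells against 14 UMIs in 6 of 92, and 12.3-fold higher (6.34 to 25.2) without the Vegfc CRE cell with the most. Hspa1a was 31.3-fold higher (24.1 to 41.3), Hsph1 19.9-fold, Nkg7 3.98-fold (3.05 to 5.19) and Ccl5 3.21-fold (2.77 to 3.71). Xcl1 was 11.2-fold higher (7.82 to 16.2), but 2.95-fold (1.72 to 4.92) without the cell that held 72 of its 96 UMIs. Among genes of resting and regulatory T cells, Ccr7 was 10.9-fold lower with 1 UMI, Tnfrsf4 9.48-fold, Ctla4 6.38-fold, Klf2 2.38-fold and Il7r 2.24-fold lower. Izumo1r gave 0 UMIs against 148. With 3 counts set in place of 0 it was 8.998-fold lower, with an exact lower limit of 7.23-fold.

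Of the cytotoxicity genes in the unassigned T cells, 6 were higher and 0 lower of 10, and of the NK genes 6 were higher and 1 lower of 9. Naive and central memory genes were lower in 6 and higher in 0 of 11, and regulatory T cell genes were lower in 8 and higher in 1 of 14. At day 0 the unassigned cells were deeper, with a median of 6532.5 UMIs against 3579, so a cell with no UMI of Cd4, Cd8a, Trdc and Foxp3 was not selected at the same depth.

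The Prox1 eGFP libraries of injured tendon held few such cells. At day 7 after the same injury the gate found 1 member among 4872 kept barcodes, and at day 21 it found 8 among 6388 (4 with Foxp3, 2 in the Ncr1/Klrb1c subset, 1 with Cd4 and 1 unassigned). With 96.8% and 86.9% of these barcodes holding a Prox1 UMI, no comparison of lymphocyte shares or levels was made with them.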

How the data were processed

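Gene expression was measured with a droplet 3′ assay in 4 libraries, 1 per group, with 717, 5051, 6704 and 8711 barcodes for Prox1 eGFP days 0, 7 and 21 and Vegfc CRE day 7. The deposited matrices held raw UMI counts per gene and barcode. The submitters' processing notes name Cell Ranger 5.0.1 and the build mm10. Neither scaled values nor cell labels from the authors entered the calculations. Barcodes were filtered and gated as the report states. UMIs were summed per library and subset and scaled to CPM. CPM carry exact Poisson, ratios exact conditional binomial and shares Clopper-Pearson intervals, all for counting error only, and a fold against 0 UMIs used 3 counts over the group. With 1 library per group nothing was tested, and genes were counted by size (at least 2-fold, at least 20 UMIs over both sums). Intervals and ratios were tested on simulated data.

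The members and gene lists were chosen with earlier results of these data known. Genes were named by rule: gate and marker genes; the 8 genes with the highest ratio per subset of at least 30 members; the 12 highest and 12 lowest against day 0 with at least 50 UMIs and a UMI in 20% of the members of the higher library, without other-cell, mitochondrial and ribosomal genes; the list genes with the most UMIs; and listed cytokines, chemokines and growth factors. A gene that the rule names is not reported here. Other genes were named after their values were seen. Of duplicate symbols the first was used. The Prox1 eGFP day 7 list had 27998 genes and the others 32285.

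No doublet caller was run on the members. Members with at least 5 UMIs of mast cell, macrophage or endothelial genes, or the top 5% by UMIs, were left out in alternatives, the former chosen after seeing the data, as was leaving out the member with the most UMIs of a gene. Other alternatives were stricter filters, limits and Cd3 sums, thinning, TMM factors (edgeR 4.0.16, R 4.3.3), mean CPM per cell, other UMI minimums, subset weighting and, added later, totals without heat shock genes. Python 3.11.15, numpy 2.4.6, scipy 1.17.1 and pandas 2.3.3 were used.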

Additional observations from a re-analysis of the deposited data

How the results depend on the processing

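No paired analysis was possible because each group was 1 library, so no replicate could be left out either. The share of members stayed between 1.71% and 1.98% of kept barcodes in the 5 alternatives run. Subset shares followed depth: thinned to 1000 UMIs, Vegfc CRE day 7 gave Foxp3 2.08%, Cd8a 2.08%, Cd4 1.04% and unassigned 37.5%, and day 0 gave Foxp3 5.71%, Cd8a 5%, Cd4 9.29%, both Cd4 and Cd8a 0% and unassigned 73.2%. Thinned to 1500, day 0 gave Foxp3 13.0%, Cd8a 9.18%, Cd4 6.65%, both Cd4 and Cd8a 0% and unassigned 64.2%. Genes at least 2-fold higher numbered 1197 (1282 lower), 624 with a minimum of 50 UMIs (902 lower) and 2761 with 1 UMI in each sum (1358 lower), where the number of genes compared changed to 6910 and 11814. TMM factors gave 1030 higher and 1543 lower, with a median log2 ratio of -0.18. A change of sign was counted only where the main ratio or median was at least 2-fold. Smaller ones that changed side were counted as stayed or moved. Over 44 genes and 11 alternatives, 415 of 484 log2 ratios stayed within their counting interval, 62 moved and 7 changed sign. Over 17 lists, 172 of 187 medians stayed, 14 moved and 1 changed sign. Every change of sign so counted came with subset weighting: Trdc -0.13, Gzma -1.33, Prf1 -0.87, Nkg7 -0.011, Ccl5 -0.58, Foxp3 1.27, Cxcr6 -0.28 and the proliferation list 0.19. Trdc and Foxp3 cut the subsets, so weighting fixes them. Within the unassigned T subset, Serpinb1a went to -0.86 without members holding mast cell, macrophage or endothelial genes. Gzmc against day 0 fell from 7.22 to 2.93 (log2) without the top 5% of members by UMIs.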

Other observations

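Genes of the fixed lists that belong to no comparison above were also read in the members of Vegfc CRE day 7. Among growth factors, Vegfa, the blood vessel growth factor, gave 12 UMIs in 8 members (19.1 CPM, 9.84 to 33.3), with 9 of the UMIs in the Ncr1/Klrb1c subset, and was seen in 15.8% of the other kept barcodes. Areg gave 19 UMIs in 6 members, of which 4 were in the Trdc subset, 1 in the Ncr1/Klrb1c subset and 1 in the Cd4 subset. Furin, a protease that matures growth factors, was 2.16-fold higher in the Trdc subset than in the other members (1.20 to 3.89). Interleukin 10 (Il10) gave 0 UMIs in the 133 members, which allows up to 4.76 CPM, and 45 UMIs in 10 day 0 members. Il2 gave 5 UMIs in 5 members and Csf2 5 UMIs in 3. Tnfsf11, the osteoclast factor RANKL, gave 10 UMIs in 6 members (15.9 CPM, 7.61 to 29.2), against 27.5 CPM in the day 0 members.

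Chemokine receptor genes moved apart against day 0. Ccr2 at 486 against 80.7 CPM was 6.02-fold higher (5.12 to 7.07), and Cxcr3, the receptor of type 1 lymphocytes, was 2.52-fold higher (1.63 to 3.83). Ccr6, a receptor of type 17 cells, was 9.15-fold lower (3.53 to 33.9) with 4 UMIs in 4 members against 224 UMIs, and Ccr8, a receptor of regulatory T cells, gave 1 UMI against 116. With subsets weighted, the log2 ratio was 1.31 for Ccr2, 0.81 for Cxcr3, -3.95 for Ccr6 and -2.11 for Ccr8.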
